A study of Arabidopsis thaliana with 18 samples.

Results

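In Arabidopsis thaliana, 9 genes known for their response to sulfur limitation were followed in warm and cold plants of the Italian ecotype (IT) and the Swedish one (SW). They were SDI1 (AT5G48850), SDI2 (AT1G04770), LSU1 (AT3G49580), LSU2 (AT5G24660), BGLU28 (AT2G44460), SHM7 (AT1G36370), APR1 (AT4G04610), APR2 (AT1G62180) and APR3 (AT4G21990). The 9 were picked by locus out of 33557 loci, and the group was chosen because SDI1 had been seen to be strongly lower in cold IT plants, so the comparison of IT plants at 1 week with warm IT plants is a description here and supports nothing. All 9 reached 1 FPKM in at least 1 group, as did 19639 loci in all, but BGLU28 did so in a single group. Ecotypes are plants descended from natural populations, and the labels name no transgene or mutation. Each of 6 groups had 3 libraries of whole aerial parts, taken 4 h after lights on. Warm IT and warm SW plants had grown on soil at 22 °C for 18 days in a 12 h photoperiod at 100 to 120 µmol m-2 s-1. The 4 cold groups, IT and SW at 1 week and at 2 weeks, grew in the same way and were then kept at 4 °C under light of about 35 µmol m-2 s-1. Cold, dimmer light and greater age cannot be told apart in these data.

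Plants take up sulfate, activate it to adenosine phosphosulfate and reduce that in plastids to sulfide, which is built into cysteine from O-acetylserine. When sulfur runs short, O-acetylserine builds up and a set of genes is switched on together, largely through the transcription factor SLIM1. Some of these genes raise uptake and reduction, and others save sulfur or release it from stores such as glucosinolates, the sulfur-rich defence compounds of the cabbage family. SDI1, SDI2, LSU1, SHM7 and APR3 are widely used as markers of this state in Arabidopsis.

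RNA sequencing values were FPKM, that is fragments counted on a gene, divided by transcript length and by the library's mapped fragments, so levels can be compared between genes. The table held 1 combined value per gene and group and no value per library, so the spread between replicates is unknown here and nothing was tested. Differences are log2 ratios of FPKM + 1, and "higher" or "lower" in a count means a ratio of at least 1 or at most -1, that is 2-fold. The sum of FPKM per group ran from 823963 to 1034038, and the read depth behind the values is unknown. In whole plants, fewer cells of a type and less RNA per cell cannot be told apart.

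The 9 genes did not all share a pattern. At 1 week of cold 6 of the 9 were at least 2-fold lower than in warm IT plants (7.91% of all genes were), and from 1 to 2 weeks 7 of the 9 were at least 2-fold higher (1.81% of all genes were). The low value at 1 week in IT is what the group was chosen on, so the first count supports nothing, and the choice favours a return from that value in the second. In the Swedish plants SDI1, SDI2 and LSU1 were at least 2-fold below the warm at 1 week (6.20% of all genes were). The same genes and APR1 were at 2 weeks (7.47% of all genes were). Both comparisons use the same warm SW group, and the share of all genes lower at both times was not counted. Of the 9 genes LSU1 alone was 2-fold higher in SW at 2 weeks than at 1 week (0.408% of all genes were). By the ratio of FPKM + 1, LSU2 and APR2 stayed within 2-fold of warm plants in all 4 cold groups. LSU2 did so only just in SW at 2 weeks, at 0.99, or 1.01 with a pseudocount of 0.1.

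**Figure D1:**
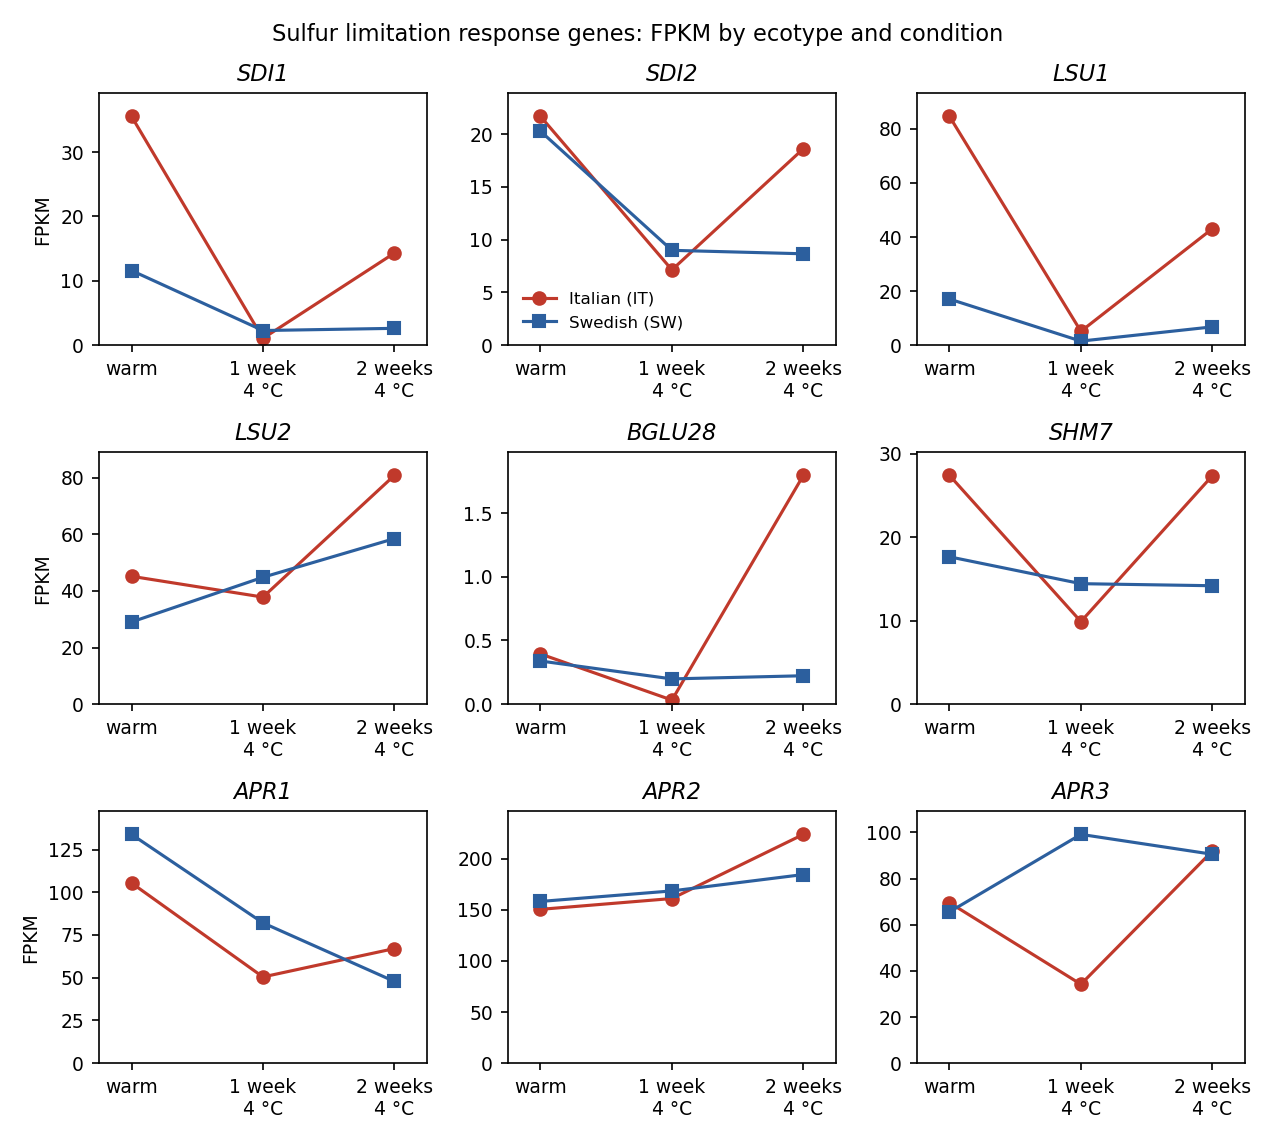
FPKM (linear axes from 0) of the 9 genes in warm plants and after 1 and 2 weeks at 4 °C, with IT as red circles and SW as blue squares. Each point is the authors' combined value for a group of 3 libraries, so there are no error bars, and the lines only join the groups of an ecotype. In IT, SDI1, SDI2, LSU1, SHM7 and APR3 are lowest at 1 week. In SW, SDI1 and LSU1 are lowest at 1 week, SDI2 and SHM7 differ little between 1 and 2 weeks, and APR3 is highest at 1 week.

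SDI1 and SDI2 encode related proteins with tetratricopeptide repeats. SDI1 is known to hold back aliphatic glucosinolate synthesis when sulfur is scarce. In the TAIR10.1 annotation SDI1 lies on the minus strand of chromosome 5 at 19805437 to 19807853, with 4 exons and a protein of 306 residues. SDI2 lies on the minus strand of chromosome 1 at 1336274 to 1337849 with 4 exons and a protein of 303 residues. Their coding sequences are identical at 67.0% of aligned bases, with no identical stretch over 17 bases.

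SDI1 stood at 35.5 FPKM in warm IT plants, 1.05 at 1 week and 14.3 at 2 weeks, and at 11.6, 2.27 and 2.61 in the same conditions in SW plants. Warm IT plants were highest and IT plants at 1 week lowest, a 33.8-fold range. The log2 ratio to warm plants was -4.15 in IT and -1.94 in SW at 1 week, and -1.26 in IT and -1.80 in SW at 2 weeks. From 1 to 2 weeks it was 2.90 in IT, place 8 from the highest among 19394 genes, and 0.14 in SW. Because SDI1 was chosen for its low value at 1 week in IT, a return from that value is favoured by the choice.

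SDI2 stood at 21.7 FPKM in warm IT plants, 7.14 at 1 week and 18.6 at 2 weeks, against 20.3, 8.99 and 8.66 in SW plants. The log2 ratio of SW to IT was -0.09 in the warm and 0.30 at 1 week, and -1.02 at 2 weeks. That last call rests on the scaling and was -0.95 after quantile normalization. The cold log2 ratios at 1 week were -1.48 in IT and -1.09 in SW.

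The 300 bases before the annotated start of SDI1 are shown because this gene had the largest ratio in the cold and because they hold the core GAGAC of the sulfur responsive element in duplicate. The window is chr5:19807854-19808153 on the minus strand of TAIR10.1, from the Columbia reference and not from IT or SW plants, and capitals mark GAGAC on either strand.
SDI1: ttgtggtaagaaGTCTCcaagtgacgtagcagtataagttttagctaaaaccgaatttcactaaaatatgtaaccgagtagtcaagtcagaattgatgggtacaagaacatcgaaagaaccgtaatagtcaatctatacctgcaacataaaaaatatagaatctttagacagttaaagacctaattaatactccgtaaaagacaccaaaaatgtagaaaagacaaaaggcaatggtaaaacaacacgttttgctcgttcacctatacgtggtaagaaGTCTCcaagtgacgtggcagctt
A look at this window showed that both cores sit in a repeated stretch of 30 bases with 1 mismatch, which begins 298 bases before the start in the far copy and 33 bases before it in the near copy. The copies are set one under the other, with the core again in capitals.
far copy: gtggtaagaaGTCTCcaagtgacgtagcag
near copy: gtggtaagaaGTCTCcaagtgacgtggcag
The repeat was noticed after the sequence was seen, and nothing in the expression values bears on its role.

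LSU1 and LSU2 encode small coiled-coil proteins of 94 residues that bind many partners and accumulate under sulfur shortage. LSU1 lies on the minus strand of chromosome 3 at 18374908 to 18375940 and has a tandem neighbour, LSU3 (AT3G49570), 1760 bases away at 18372404 to 18373147. LSU2 lies on the minus strand of chromosome 5 at 8443279 to 8444101, and its neighbour LSU4 (AT5G24655) is 1914 bases away at 8440601 to 8441364. LSU2 and LSU4 are identical at 88.9% of coding bases with an identical stretch of 30 bases, and LSU1 and LSU3 at 83.8% with one of 23 bases. The read length is not given in the sources used here, so the split of reads within these pairs is uncertain.

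LSU1 stood at 84.6 FPKM in warm IT plants, 5.12 at 1 week and 43.1 at 2 weeks, and at 17.1, 1.5 and 6.77 in SW plants. IT exceeded SW in all 3 conditions, with log2 ratios of SW to IT of -2.25 in the warm, -1.29 at 1 week and -2.50 at 2 weeks. The dip at 1 week was common to both ecotypes, with log2 ratios of -3.81 in IT and -2.85 in SW, and so was the return by 2 weeks, with 2.85 and 1.64. LSU1 had the widest range of the 9 genes, 56.5-fold on the linear scale. The bases before it are shown for comparison with those of SDI1. The window is chr3:18375941-18376240 on the minus strand. Capitals mark a match on either strand to ATGNANCT, a loose spelling of the site of EIN3-type factors such as SLIM1.
LSU1: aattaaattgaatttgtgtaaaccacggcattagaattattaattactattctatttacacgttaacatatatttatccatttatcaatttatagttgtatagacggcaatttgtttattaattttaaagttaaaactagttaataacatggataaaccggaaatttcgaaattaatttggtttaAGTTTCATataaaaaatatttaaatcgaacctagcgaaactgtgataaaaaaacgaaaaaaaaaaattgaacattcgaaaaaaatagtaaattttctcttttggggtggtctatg

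LSU2 behaved otherwise than LSU1. It stood at 45.2 FPKM in warm IT plants, 37.8 at 1 week and 80.9 at 2 weeks, against 29.0, 44.8 and 58.5 in SW plants. Both ecotypes were highest at 2 weeks. The log2 ratio of IT at 2 weeks to 1 week was 1.08, and 0.64 after scaling by reference genes. In SW the ratio of 2 weeks to the warm was 0.99, and 1.01 with a pseudocount of 0.1.

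The neighbours, which are not among the 9, also differed from each other. LSU3 stood at 23.4 FPKM in warm IT plants, 5.51 at 1 week and 29.8 at 2 weeks, against 6.21, 6.94 and 9.65 in SW, with its lowest value in IT at 1 week. LSU4 stood at 5.18, 10.8 and 25.7 FPKM in IT, against 0.594, 0.912 and 1.46 in SW, with log2 ratios of SW to IT of -1.96, -2.63 and -3.44 in the 3 conditions. The values were made on the TAIR10 build, per the submitters' processing notes, and the IT and SW alleles of these genes were not analysed here.

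BGLU28 encodes a beta-glucosidase that breaks down glucosinolates under sulfur shortage. It has 13 exons on the plus strand of chromosome 2 at 18346306 to 18350026. Its level was 0.394 FPKM in warm IT plants, 0.0320 at 1 week and 1.80 at 2 weeks, against 0.339, 0.198 and 0.223 in SW plants. It was below 1 FPKM everywhere but in IT at 2 weeks, which alone carried it past the filter on low values, so its ratios there had to be large. The log2 ratio of 2 weeks to 1 week in IT was 1.44 with a pseudocount of 1. At 1 week in IT its ratio to the warm was -0.43 with that pseudocount and -1.90 with 0.1.

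SHM7, also called MSA1, belongs to the serine hydroxymethyltransferase family and is known to affect the supply of S-adenosylmethionine. It has 4 exons on the minus strand of chromosome 1 at 13696042 to 13698739. SHM7 stood at 27.4 FPKM in warm IT plants, 9.90 at 1 week and 27.4 at 2 weeks, against 17.7, 14.4 and 14.2 in SW plants. IT plants at 2 weeks were back at the warm value, while SW values lay close together. The log2 ratio at 1 week was -1.38 in IT and -0.27 in SW, a difference of responses of 1.11 that shrank to 0.66 after scaling by reference genes. Of the 6 other genes of the family, 0 were 2-fold lower in IT at 1 week. Of all genes 7.91% were, so little is read from that count. SHM1, the photorespiratory enzyme of leaf mitochondria, stood between 864 and 1506 FPKM, and SHM3 was 2-fold higher at 1 week in both ecotypes, with log2 ratios of 1.13 in IT and 1.06 in SW. The bases before SHM7, chr1:13698740-13699039 on the minus strand, are shown because they hold ATGNANCT in duplicate, counting either strand, in capitals.
SHM7: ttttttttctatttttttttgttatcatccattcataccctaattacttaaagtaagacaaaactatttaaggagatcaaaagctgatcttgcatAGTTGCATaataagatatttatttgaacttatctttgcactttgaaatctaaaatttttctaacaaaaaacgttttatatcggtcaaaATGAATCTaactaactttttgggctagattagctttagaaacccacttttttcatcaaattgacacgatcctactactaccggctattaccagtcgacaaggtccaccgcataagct

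APR1, APR2 and APR3 encode the plastid enzymes that reduce adenosine phosphosulfate to sulfite, the step at which the pathway is mainly controlled. APR1 lies on the plus strand of chromosome 4 at 2324878 to 2327064, APR3 on the minus strand of chromosome 4 at 11657008 to 11659167 and APR2 on the minus strand of chromosome 1 at 22975530 to 22977885. APR1 and APR3 are identical at 82.4% of coding bases, with an identical stretch of 41 bases, so their split of reads is uncertain too, and APR2 is identical to them at 76.2% and 76.4%.

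APR2 was the most abundant of the 9 genes in every group. It stood at 150 FPKM in warm IT plants, 161 at 1 week and 224 at 2 weeks, against 158, 168 and 184 in SW plants, the narrowest range of the 9 genes at 1.49-fold. APR1 stood at 105 FPKM in warm IT plants, 50.4 at 1 week and 67.0 at 2 weeks, against 134, 82.1 and 47.8 in SW plants. It was lower at each step in SW, with a log2 ratio of -1.47 at 2 weeks, while IT was lowest at 1 week with -1.05, or -0.90 after scaling by reference genes.

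APR3 parted the ecotypes at 1 week. It stood at 69.6 FPKM in warm IT plants, 34.2 at 1 week and 91.9 at 2 weeks, against 65.6, 99.2 and 90.6 in SW plants. The ecotypes were close in the warm and at 2 weeks, with log2 ratios of SW to IT of -0.08 and -0.02, and differed at 1 week, with 1.51. Its cold ratio at 1 week was -1.003 in IT and 0.59 in SW. After scaling by reference genes the ratio of SW to IT at 1 week lay just within 2-fold, at 0.95, and that of SW at 2 weeks to the warm turned from 0.46 to -0.05.

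**Figure D2:**
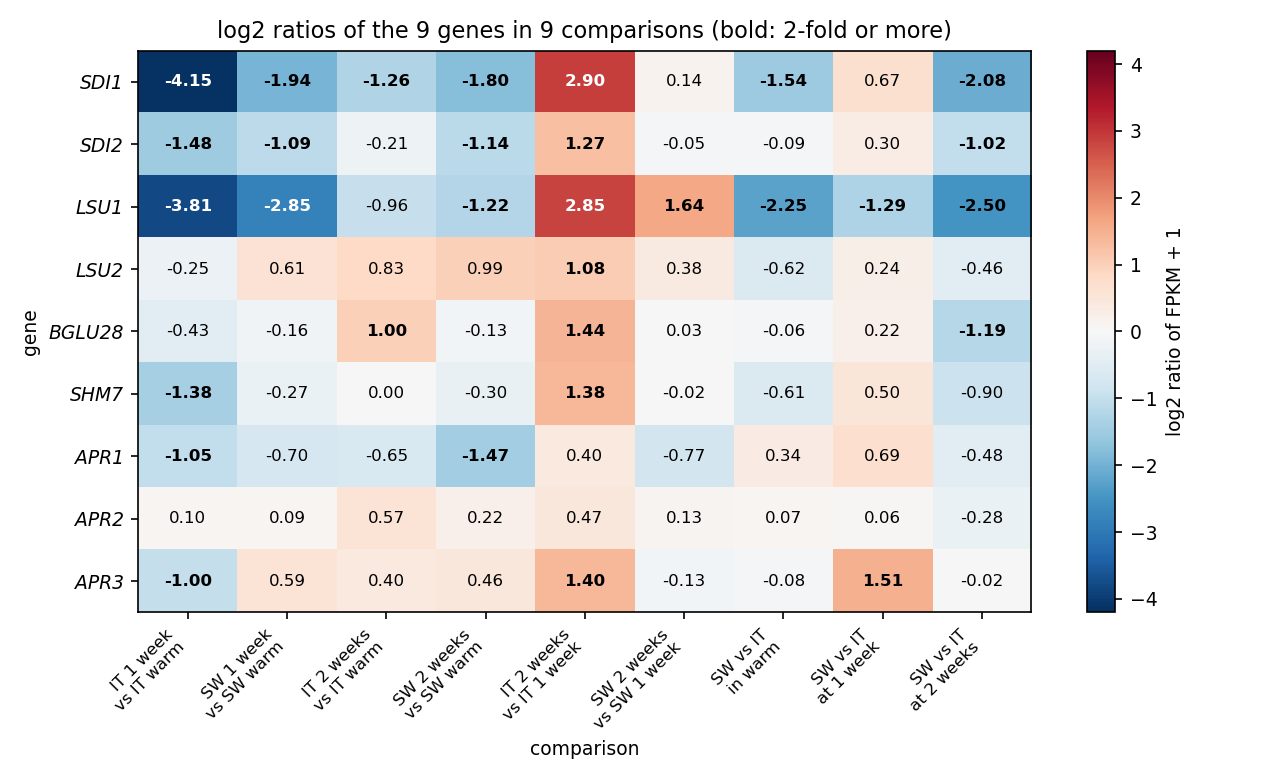
Log2 ratios of FPKM + 1 for the 9 genes (rows) in 9 comparisons (columns), blue for lower and red for higher in the group named before "vs", and bold at 2-fold or more. The column of IT at 2 weeks against 1 week holds 7 bold positive values, and that of SW holds 1.

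Counts per comparison are read beside the share of all genes past the same limit. For IT at 1 week against warm, 6 of 9 members were lower and 0 higher, where 7.91% of 19362 genes were lower and 10.0% higher, but this is the comparison that led to the choice of the group. After reference-gene scaling 4 of 9 were lower, since APR1 (-0.90) and APR3 (-0.86) then lay within 2-fold. For SW at 1 week 3 of 9 were lower and 0 higher, where 6.20% of 19347 genes were lower and 7.81% higher. At 2 weeks 1 of 9 was lower (SDI1) and 1 higher (BGLU28) in IT, where 6.43% and 7.03% of 19382 genes were. BGLU28 passed the filter only through its value in IT at 2 weeks, so the filter fixed its direction. Its log2 ratio of 1.004 became 0.97 after upper-quartile scaling and 0.89 after reference-gene scaling. In SW at 2 weeks SDI1, SDI2, LSU1 and APR1 were lower, 4 of 9, and 0 were higher, where 7.47% of 19328 genes were lower and 6.54% higher. The median log2 ratio of the members was -1.05 in IT and -0.27 in SW at 1 week, and -0.0024 in IT and -0.30 in SW at 2 weeks, beside medians over all genes of -0.0023, 0.027, 0.042 and 0.012. The warm group of an ecotype enters both of its cold comparisons. The scaling moved the split of all calls: of the genes past 2-fold, 55.9% were higher in IT at 1 week as deposited, 46.7% after upper-quartile scaling and 66.8% after scaling by 12 reference genes. In SW at 1 week 55.7% were higher as deposited and 29.0% after reference-gene scaling. At 2 weeks the shares were 52.2% and 26.2% in IT and 46.7% and 14.5% in SW.

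In the second week of cold the Italian plants stood apart. SDI1, SDI2, LSU1, LSU2, BGLU28, SHM7 and APR3 were at least 2-fold higher at 2 weeks than at 1 week, 7 of 9 with 0 lower, where 1.81% of 19394 genes were higher and 1.48% lower, and APR1 (0.40) and APR2 (0.47) lay within 2-fold. BGLU28 was kept only through its value in IT at 2 weeks, so its ratio had to be large, and with a filter of 5 FPKM, which removes it, 6 of 8 were higher. The median of the members was 1.38 against 0.0094 over all genes. In SW plants 1 of 9 was higher, LSU1, and 0 were lower, where 0.408% of 19358 genes were higher and 2.88% lower, and the median was 0.030. The IT group at 1 week, low by the choice of SDI1, also enters this IT comparison, and the difference between ecotypes was not tested. Scaling by the reference genes moved the median of all genes by -0.38 and left 3 of 9 members higher in IT, with a median of 0.96 that lay 1.33 above that of all genes, and it turned APR1 to -0.035. Of the genes past 2-fold in IT, 55.1% were higher as deposited and 10.4% after that scaling.

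**Figure D3:**
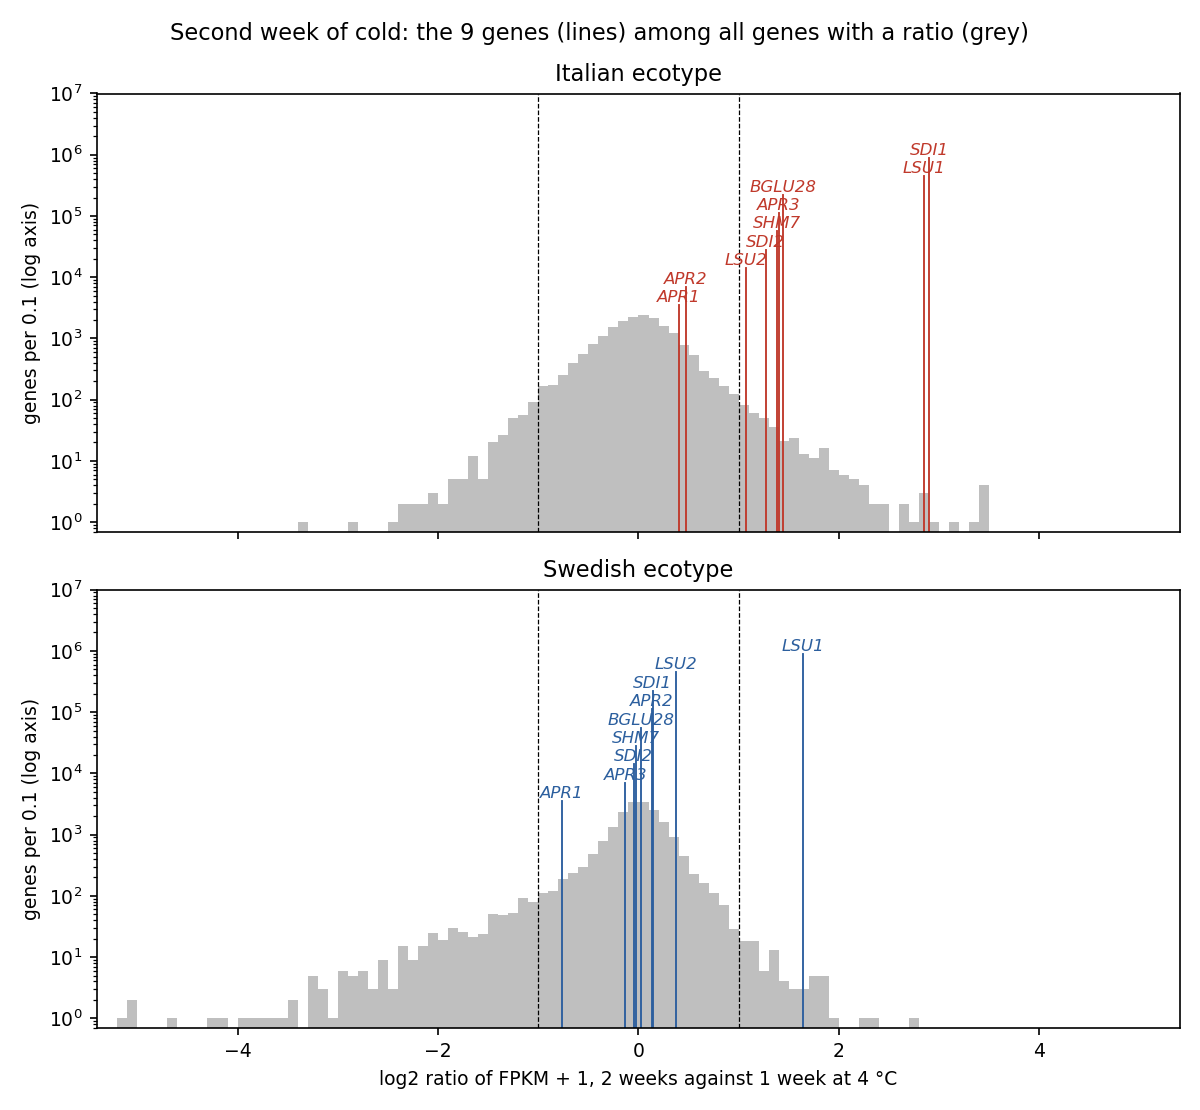
Grey bars count all genes with a ratio by their log2 ratio of FPKM + 1 from 1 to 2 weeks at 4 °C (vertical log axis, dashed lines at 2-fold), with IT above and SW below. Coloured lines mark the 9 genes and their height carries no value. In IT all 9 lie right of 0 (APR1 lies left of 0, at -0.035, after scaling by reference genes) and 7 right of the dashed line, and in SW 8 lie within 2-fold and LSU1 is higher.

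Other measured features moved in the IT plants at 2 weeks too. Of 5 floral identity markers (AP1, AP3, PI, SEP3 and AG) 4 reached 1 FPKM there and 0 in any other group, and their summed level was 7.22 FPKM, against 0.963 in IT at 1 week and 0.440 to 1.20 in the other groups. The senescence marker SAG12 stood at 1.76 FPKM against 0.0152 in IT at 1 week, and at 0.890 in SW at 2 weeks. Their part in the return of the sulfur genes was not tested. Leaf markers fit the labelled aerial tissue, with LHCB3, CA1, GLDP1 and PSAD1 summing to between 5020 and 14100 FPKM, although the Rubisco gene RBCS1A was listed at 0 in every group. Root hair genes COBL9, EXPA7 and EXPA18 stayed at or below 0.0294 FPKM, the seed storage genes SESA1 and CRA1 at or below 0.0465 and 0.0626, and 2 of 5 root markers, PYK10 and WOX5, reached 1 FPKM in at least 1 group. In the warm, at 1 week and at 2 weeks the 5 root markers summed to 35.4, 10.2 and 3.48 FPKM in IT. In SW they summed to 28.0, 11.2 and 6.18. Most of the sum was PYK10 in the warm and at 1 week in both ecotypes. At 2 weeks PYK10 stood at 1.76 FPKM in IT and 1.22 in SW, and WOX5 at 1.68 and 4.95.

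Ecotypes were compared in each condition. In the warm SDI1 and LSU1 were at least 2-fold lower in SW than in IT, 2 of 9, and 0 were higher, where 4.22% of 19325 genes were lower and 2.68% higher. At 1 week LSU1 was lower and APR3 higher, 1 of 9 each, where 3.95% and 4.57% of 19336 genes were. At 2 weeks SDI1, SDI2, LSU1 and BGLU28 were lower, 4 of 9, and 0 were higher, where 7.19% of 19335 genes were lower and 3.92% higher. The filter fixed the direction of BGLU28 here too, and 3 of 8 were lower with the filter of 5 FPKM. All 9 members were below 0 at 2 weeks, with a median of -0.90 beside 0.023 over all genes. APR3 was only just below 0, at -0.02. The share of all genes below 0 was not counted, so little is read from the 9 of 9. All 9 stayed below 0 under upper-quartile, reference-gene and quantile scaling. Reference-gene scaling by itself moved the median of all genes by -0.25. The difference of the log2 cold responses, SW minus IT, was past 1 at 1 week for SDI1 (2.21), APR3 (1.59) and SHM7 (1.11), 3 of 9 with 0 below -1, where 4.89% of 19218 genes were past 1 and 2.43% below -1. This difference contains the IT ratio at 1 week on which the group was chosen, so the choice favours positive values and nothing is read from the count. At 2 weeks it was below -1 for BGLU28 (-1.13), 1 of 9 with 0 past 1, where 4.21% of 19223 genes were below -1 and 3.07% past 1. The filter, which kept BGLU28 only through IT at 2 weeks, favours this direction. After reference-gene scaling the share of higher genes among those past 2-fold went from 53.6% to 15.7% for SW against IT at 1 week, from 35.3% to 20.0% at 2 weeks, and from 66.8% to 17.2% and from 42.1% to 28.9% for the response differences at 1 and 2 weeks.

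The rest of the sulfur pathway was read from 6 lists of 58 genes. GGCT2;1 (AT5G26220), a gamma-glutamyl cyclotransferase that breaks down glutathione and a further marker of high O-acetylserine, stood at 38.5 FPKM in warm IT plants, 10.4 at 1 week and 68.5 at 2 weeks, against 11.2, 19.7 and 17.3 in SW plants. Like SDI1 and LSU1, it had its low point in IT at 1 week among the IT groups. Its log2 ratio in IT was -1.79 at 1 week and 2.6 from 1 to 2 weeks. BGLU30 (AT3G60140), also known as the dark-inducible gene DIN2 and like BGLU28 a glucosinolate-cleaving enzyme, stood at 19.8, 1.68 and 22.9 FPKM in IT, but at 2.51, 20.1 and 3.02 in SW. IT plants were low at 1 week where SW plants were high, and the log2 responses at 1 week differed by 5.54. In this list of relatives and other markers, 10 of 11 genes were measured above the filter. In IT at 1 week, 3 were lower and 1 higher, where 7.91% of all genes were lower and 10.0% higher. In IT from 1 to 2 weeks, 4 were higher and 0 lower, where 1.81% of all genes were higher and 1.48% lower. Both counts use IT plants at 1 week, whose low SDI1 value led to the choice of the sulfur limitation genes. That choice favours genes that follow SDI1, so little is read from these counts.

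Sulfate transporter genes passed 2-fold about as often as genes at large in IT at 1 week, where 7.91% of all genes were lower and 10.0% higher. Of 12 listed, 9 passed the filter, of which 1 was higher and 1 lower in IT at 1 week. At 2 weeks 1 was higher in IT, where 7.03% of all genes were. In SW 0 passed 2-fold at 1 week, where 6.20% of all genes were lower and 7.81% higher. In SW 1 was lower at 2 weeks, where 7.47% of all genes were. SULTR1;2, the main uptake transporter of roots, was low in these aerial parts, at 2.51, 0.681 and 3.85 FPKM in IT and at 1.28, 0.694 and 0.657 in SW. In IT it had the same dip and return, with log2 ratios of -1.06 and 1.53. SULTR1;1 stayed at or below 0.0497 FPKM and was listed at 0 in the 3 SW groups. SULTR3;3 was higher in cold IT plants, at 21.0 FPKM at 1 week and 17.7 at 2 weeks against 5.97, and SULTR2;1, a vascular transporter, stood between 24.1 and 44.0 FPKM.

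Genes of sulfate activation went in several directions. ATPS1, the most abundant ATP sulfurylase gene, stood at 415, 294 and 326 FPKM in IT and at 504, 369 and 229 in SW. ATPS2 stood at 47.8 FPKM in warm IT plants against 137 at 1 week and 106 at 2 weeks, with log2 ratios of 1.5 and 1.14, and in SW it lay within 2-fold. APK1 and APK2 encode kinases that divert activated sulfate to sulfation, including that of glucosinolates, and both were lower at 2 weeks in both ecotypes. The log2 ratios of APK2 were -1.46 in IT and -1.79 in SW, and those of APK1 -1.22 and -1.31. Of the 9 genes of this list, 2 were lower and 1 higher in IT at 2 weeks, where 6.43% of all genes were lower and 7.03% higher. In SW at 2 weeks 4 were lower and 0 higher, where 7.47% of all genes were lower and 6.54% higher.

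Genes of cysteine and glutathione synthesis mostly lay within 2-fold, as did most genes at large. All 10 genes lay within 2-fold of the warm in IT at 1 and 2 weeks and in SW at 1 week, and SERAT2;1 (-1.27) was the only 1 of 10 past 2-fold in SW at 2 weeks. OASA1, the main cytosolic cysteine synthase, stood between 297 and 455 FPKM. Of 4 regulators, SLIM1, EIL1, EIN3 and HY5, 0 passed 2-fold in any comparison, and in each comparison most genes at large did not either. SLIM1 stood at 10.9, 15.3 and 16 FPKM in IT and at 11.9, 19.0 and 16.3 in SW.

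The listed aliphatic glucosinolate genes and the listed sulfotransferases had lower values at 2 weeks than in the warm. All 12 were below the warm in both ecotypes at 2 weeks, though the share of all genes below the warm was not counted. At least 2-fold lower were 6 of 12 in IT and 9 of 12 in SW, where 6.43% and 7.47% of all genes were. In both ecotypes 0 were higher, where 7.03% and 6.54% of all genes were. The medians were -1.0 and -1.14, beside 0.042 and 0.012 over all genes. All 12 stayed below 0 under upper-quartile, reference-gene and quantile scaling. Reference-gene scaling by itself moved the median of all genes by -0.25 in IT and -0.42 in SW. At 1 week 1 of 12, AOP2, was 2-fold lower in IT and 0 in SW, where 7.91% and 6.20% of all genes were. The sulfotransferase gene SOT17 stood at 73.3, 75.4 and 27.4 FPKM in IT and at 115, 66.3 and 27.9 in SW. MYB28 is the activator of aliphatic glucosinolate genes that SDI1 is known to bind, and it was named here after its values were seen. It stood at 69.3, 84.1 and 44.1 FPKM in IT and at 89.9, 47.0 and 42.7 in SW. From 1 to 2 weeks in IT 7 of the 12 were at least 2-fold lower, where 1.48% of all genes were. Under the 3 scalings 5 to 10 of the 12 were lower.

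**Figure D4:**
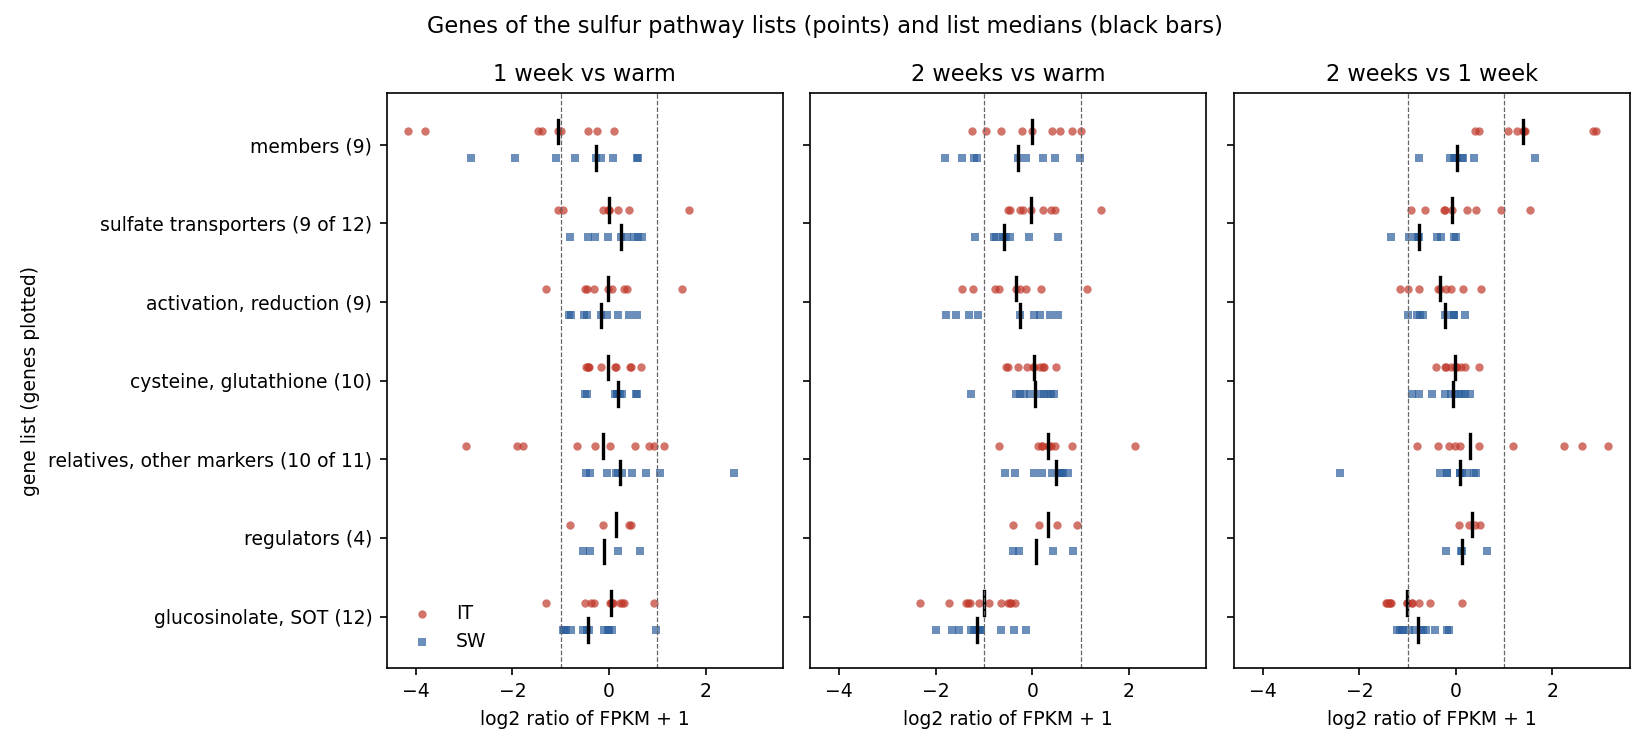
Log2 ratios of FPKM + 1 for the genes of each list that passed the filter (points, IT red circles and SW blue squares) and the list medians (black bars), with dashed lines at 2-fold. At 1 week the 9 members in IT reach from -4.15 to 0.10, cysteine and glutathione genes lie within 2-fold except SERAT2;1 in SW at 2 weeks (-1.27), and glucosinolate genes lie left of 0 at 2 weeks against the warm.

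Genes with a profile like that of SDI1 were found by Euclidean distance between log2(FPKM + 1) profiles centred on their mean over the 6 groups, among 15259 genes that reached 5 FPKM and were above 0 in all groups. The 6 closest were PUB54 (distance 1.01), PYD4 (1.04), AT1G21525 (1.12), AT5G52720 (1.22), AT3G60470 (1.27) and AT2G32140 (1.30). PUB54 stood at 27.3, 2.54 and 15.7 FPKM in IT and at 8.98, 3.07 and 2.1 in SW. Of the other members LSU1 was closest to SDI1, in place 29 at a distance of 1.68, followed by SDI2 in place 162 and SHM7 in place 383. The gene closest to SDI2 was ACA1, a calcium pump gene, at 0.233, and PYD4 was also the closest to LSU1, at 1.58. Closest to SHM7, LSU2 and BGLU28 were AT5G60280 (0.411), AT2G17710 (0.298) and ATA20 (0.309). For APR1, APR2 and APR3 they were AT3G51450 (0.265), the proteasome gene RPN1A (0.107) and AT3G15630 (0.457). Of the 9 genes, 0 had another of the 9 as its closest gene, with BGLU28 outside the genes compared because it stayed under 5 FPKM. With 15258 genes compared, that 0 says little about likeness, and for LSU1 the gene in place 4 was SDI1.

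In the 300 bases before the annotated starts, matches on either strand to 4 short motifs were few. GAGAC, on either strand, was in 2 of 9 windows (SDI1 and BGLU28), against 30.0% of 27437 windows of protein-coding genes. ATGNANCT was in 2 of 9 (LSU1 and SHM7) against 15.2%, the CBF site core CCGAC in 2 of 9 (SDI2 and BGLU28) against 13.9%, and the G-box CACGTG in 0 of 9 against 7.09%. The matches do not overlap each other in these windows. The shares are for windows with at least 1 match. How many windows hold a motif in duplicate, as SDI1 does GAGAC and SHM7 does ATGNANCT, was not counted. LSU2, APR1, APR2 and APR3 held none of the 4.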

How the data were processed

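RNA was sequenced from 18 libraries of aerial parts in 6 groups of 3. The authors deposited 1 table with a combined FPKM value per locus and group. Per the submitters' processing notes, TopHat 1.4.1, Cufflinks 2.1.1, Cuffdiff and the TAIR10 build were used, and how the libraries were combined is not given in the sources used here. From the table, log2 ratios of FPKM + 1 were computed in Python 3.11.15 with pandas 2.3.3 and numpy 2.4.6 for loci at 1 FPKM or more in at least 1 group. A value of exactly 0 gave no ratio, and 2-fold or more was counted as higher or lower. No test was made, since no value per library was used, and the ratio code was tested on simulated data. The 9 genes and the gene lists were chosen with earlier results of these data known. Beside the 9 genes, the text names per list and cold comparison up to 3 genes past 2-fold with the largest ratio and the most abundant gene within 2-fold, and always GGCT2;1, LSU3, LSU4, SLIM1, SULTR1;1 and SULTR1;2. By likeness it names the 6 genes closest to SDI1 and up to 3 for each other gene. Positions, coding sequences and the windows of 300 bases, a length set after the table was seen, came from RefSeq TAIR10.1, in which 32813 loci (97.8%) matched, and coding sequences were aligned with biopython 1.88. Other pseudocounts, filters and scalings were tried.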

Additional observations from a re-analysis of the deposited data

Results flagged for a closer look

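All of the following are differences between the ecotypes' log2 responses, SW minus IT, in which one ecotype was higher and the other lower. With 1 combined value per group, none of these differences was tested. At 1 week of cold against the warm, the difference was 1.59 for APR3, 2.55 for GGCT2;1 and 2.04 for LSU3, each lower in IT and higher in SW. The SW ratio of LSU3 was only 0.14 and turned to -0.15 after scaling by reference genes. At 2 weeks against the warm, it was -1.13 for BGLU28, whose level passed 1 FPKM in a single group. From 1 to 2 weeks, it was -1.32 for SDI2, -1.40 for SHM7, -1.17 for APR1, -1.53 for APR3, -2.78 for GGCT2;1 and -1.56 for SULTR1;2, each above 0 in IT and below 0 in SW. Most of these SW ratios were close to 0, at -0.048 for SDI2, -0.023 for SHM7, -0.13 for APR3, -0.18 for GGCT2;1 and -0.032 for SULTR1;2, against -0.77 for APR1. The opposite directions did not hold under every scaling, since quantile normalization turned SW to 0.0097 for SHM7 and 0.081 for SULTR1;2, and reference-gene scaling turned IT to -0.035 for APR1. The choice of the group for a low IT value at 1 week favours these differences. The IT group at 1 week enters the differences at 1 week and from 1 to 2 weeks alike.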

How the results depend on the processing

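No paired analysis was possible because the table holds 1 combined value per group, and for the same reason leaving out each replicate was not run. Of 77 medians of the 9 genes under other settings 74 stayed close to their main value, as did 141 of 154 counts. Close meant a median that moved by less than 0.5 without crossing the 2-fold limit, or a count that changed at most 1.5-fold. By the rule for medians, 633 of 682 ratios of single members stayed close and 49 moved. Reference-gene scaling moved 23 of 99, the most of any setting. Under all settings 0 called values changed sign. Scaling by reference genes moved the medians to -0.90 for IT at 1 week against the warm, 0.96 for IT from 1 to 2 weeks and -1.18 for SW against IT at 2 weeks. Under that scaling 3 members were higher in IT from 1 to 2 weeks, 0 were higher in SW against IT at 1 week, and the response at 2 weeks was lower in SW than in IT for 3. For IT at 2 weeks against the warm, 0 members were higher after a filter of 5 FPKM, upper-quartile scaling or reference-gene scaling, and 2 were lower after upper-quartile, reference-gene or quantile scaling. With pseudocounts of 0.1 and 0.25, 1 member was higher in SW at 2 weeks against the warm, and with 0.1 there were 3 higher in SW against IT at 1 week. With the filter of 5 FPKM, which removes BGLU28, the response at 2 weeks was lower in SW than in IT for 0. Where no value shows the cause, the cause was not tested. The unknown depth limits BGLU28 and other genes under 1 FPKM most.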
